A study of Mus musculus with 10 samples.

Results

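The costimulatory receptors of T cells were described here as 9 genes chosen by name, Cd28, Icos, Cd226, Tnfrsf9, Tnfrsf4, Tnfrsf18, Cd27, Tnfrsf8 and Tnfrsf1b, out of 57825 genes listed in an RNA sequencing table of mouse CD8+ T cells. Each symbol was listed once, and all 9 passed the expression filter (average over all samples of 0.5 FPKM or more). Splenic CD8+ T cells of female Balb/c mice aged 7 to 8 weeks were kept on plate-bound anti-CD3 with anti-CD28 antibody and interleukin-2 for 12 h, then 24 h with or without sodium acetate (NaAc), and were then co-cultured for 48 h with 4T1 cells, a mouse mammary carcinoma line. The comparison was between 5 samples without (CD8+4T1) and 5 with 5 mM NaAc (CD8+4T1+NaAc), both labelled day 3, and it asked what acetate does to T cells that meet tumor cells. All 10 samples had therefore received a CD28 agonist antibody and tumor cells, and the samples held no T cells cultured without 4T1. The labels do not say that replicates came from separate animals, so p-values measure the spread between these samples only, which may be technical.

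A T cell needs a costimulatory signal beside the signal of its antigen receptor. CD28 and ICOS belong to the immunoglobulin superfamily and bind the B7 proteins of antigen-presenting cells, CD28 on resting and ICOS on activated T cells. CD226 binds nectin-type adhesion proteins on tumor and infected cells and competes for them with the inhibitory receptor TIGIT. The other members are receptors of the tumor necrosis factor (TNF) receptor superfamily, which bind trimeric ligands and signal through TRAF adaptors to NF-kB: CD137 (Tnfrsf9), OX40 (Tnfrsf4), GITR (Tnfrsf18) and CD30 (Tnfrsf8) are induced by activation, CD27 is already present on naive T cells, and Tnfrsf1b encodes TNFR2, the TNF receptor of lymphocytes.

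The stretches from 250 bases before to 50 after the transcription start of 4 TNF receptor genes are shown here. They belong to the most abundant member (Tnfrsf9), a member that fell with it (Tnfrsf18) and the member that rose most (Tnfrsf1b). The last is Tnfrsf8, the only other of the members searched with matches of the kinds in capitals. The sequences are those of RefSeq on build GRCm38.p6, in which 6 of 9 members had an entry (7 sequences, since Tnfrsf9 has 2), and they run 5′ to 3′ on the strand of the gene. Capitals mark matches to the AP-1 site TGANTCA or to the NF-kB consensus, both searched on both strands. For Tnfrsf9 the downstream of its starts is shown.

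Tnfrsf9 (chr4:150927749-150928048, plus strand): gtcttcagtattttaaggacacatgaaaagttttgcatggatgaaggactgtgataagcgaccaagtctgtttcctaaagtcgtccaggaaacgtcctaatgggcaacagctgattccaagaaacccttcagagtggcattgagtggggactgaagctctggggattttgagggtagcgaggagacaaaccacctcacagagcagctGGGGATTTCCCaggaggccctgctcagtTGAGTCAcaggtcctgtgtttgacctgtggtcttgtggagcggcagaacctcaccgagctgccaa

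Tnfrsf18 (chr4:156026072-156026371, plus strand): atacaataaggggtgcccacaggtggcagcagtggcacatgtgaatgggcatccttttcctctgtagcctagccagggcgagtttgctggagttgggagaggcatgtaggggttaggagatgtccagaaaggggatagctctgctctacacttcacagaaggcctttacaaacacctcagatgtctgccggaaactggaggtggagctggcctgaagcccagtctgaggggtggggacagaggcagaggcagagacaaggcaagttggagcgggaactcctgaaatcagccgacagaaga

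Tnfrsf1b (chr4:145246821-145247120, minus strand): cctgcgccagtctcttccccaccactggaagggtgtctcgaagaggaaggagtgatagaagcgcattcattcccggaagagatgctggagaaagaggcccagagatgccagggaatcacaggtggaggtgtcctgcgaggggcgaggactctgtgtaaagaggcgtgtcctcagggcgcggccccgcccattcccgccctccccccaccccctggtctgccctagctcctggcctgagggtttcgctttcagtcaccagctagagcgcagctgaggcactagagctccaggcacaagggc

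Tnfrsf8 (chr4:145315115-145315414, minus strand): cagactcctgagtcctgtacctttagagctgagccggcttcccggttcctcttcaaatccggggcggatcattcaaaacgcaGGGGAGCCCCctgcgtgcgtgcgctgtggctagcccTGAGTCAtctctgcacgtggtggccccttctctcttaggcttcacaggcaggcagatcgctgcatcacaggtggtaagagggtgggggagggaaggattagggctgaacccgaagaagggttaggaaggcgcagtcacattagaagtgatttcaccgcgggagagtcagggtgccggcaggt

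In the Tnfrsf9 stretch, a pair of NF-kB matches that overlap each other lay at bases -43 to -34 and -42 to -33 from the start, and an AP-1 match at -15 to -9. In the Tnfrsf8 stretch the NF-kB match, on the opposite strand, lay at -168 to -159 and the AP-1 match at -132 to -126. The stretches of Tnfrsf18, Tnfrsf1b and Cd27 held no match to these motifs or to the NFAT core TGGAAA, and those of Tnfrsf4 and of the upstream Tnfrsf9 start held a single NFAT core each. No match of one motif overlapped a match of another. Of 32851 promoters of the same length, 7.81% held an AP-1 match, 4.51% an NF-kB match and 21.4% an NFAT core. These are matches of letters, and binding was not measured.

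NaAc samples had less mRNA of Tnfrsf9, Icos, Tnfrsf18 and Cd226 and more of Tnfrsf1b and Cd27, while Cd28, Tnfrsf4 and Tnfrsf8 did not pass the test. Thus 6 of the 9 receptors were called at an adjusted p under 0.05 (limma on log2(FPKM + 0.1), Benjamini-Hochberg over all 15710 genes tested), against 36.5% of all genes tested. By direction, 2 receptors were called higher, beside 17.6% of all genes, and 4 lower, beside 19.0% of all genes. Where a mean of at least 5 FPKM was asked for, which leaves out Tnfrsf8, 6 receptors and 3733 of 7800 genes were called. When the samples were scaled to the same total or to T cell markers, 3 receptors were called higher and 3 lower. Under these scalings 78.0% and 81.9% of the calls over all genes were higher. The groups did not overlap in 5 receptors, beside 26.4% of all genes. The median log2 fold change of the receptors was -0.11 and that of all genes -0.02, and 0 receptors passed an absolute log2 fold change of 1. Calls at this threshold were thus common in the whole table, and how many genes changed by as much as the receptors was not counted.

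Several measures of the whole libraries moved with NaAc. FPKM (fragments relative to gene length and to the fragments of the sample) referred to between 16306447 and 18853726 fragments per sample, of which the listed genes held 95.5% to 97.9% in CD8+4T1 and 89.8% to 92.1% in CD8+4T1+NaAc samples. Replicate 1 had the fewest genes above 0 in both groups, 22291 against up to 24054 in CD8+4T1 and 20233 against up to 25088 in CD8+4T1+NaAc samples. It also had the lowest share in listed genes in both groups, 95.5% and 89.8%. The T cell markers checked the label: all 12 were expressed, with summed levels of 1016 to 1137 FPKM in CD8+4T1 and 907 to 1017 FPKM in CD8+4T1+NaAc samples, and 7 of the 12 were called lower and 1 higher (median log2 fold change -0.28). The 5 helper and regulatory T cell markers summed to 19.3 to 22.3 FPKM in CD8+4T1 and 18.5 to 24.9 FPKM in CD8+4T1+NaAc samples, and 1 of the 4 tested, Cd4, was called higher, at 1.39 to 1.87 FPKM in NaAc samples. Foxp3 was at 0.0767 to 0.297 FPKM throughout, while Zbtb7b had means of 13.5 and 12.4 FPKM and Ikzf2 of 6.21 and 5.44 FPKM without and with NaAc. Of 20 4T1 and epithelial markers, 11 were tested, 7 were called higher and 0 lower. Without Ly6a, which T cells also express strongly, their sum ran from 21.0 to 34.9 FPKM in CD8+4T1 and from 125 to 282 FPKM in CD8+4T1+NaAc samples, and none was at 0 in all samples. Summed markers of B cells ranged from 3.92 to 4.91 and from 4.55 to 6.24 FPKM in the 2 groups, those of myeloid cells from 4.46 to 7.97 and from 8.32 to 11.1 FPKM, with 2 of 4 tested called higher, and those of NK cells from 46.5 to 55.5 and from 52.9 to 64.8 FPKM, the last nearly all Klrk1 and Eomes, which CD8+ T cells share. Of the B cell markers, mean levels of Ms4a1 and Pax5 were under 0.1 FPKM in both groups, while Cd79b was at 3.58 and 4.64 FPKM and Cd79a at 0.961 and 1.06 FPKM without and with NaAc. Of the NK cell markers, Ncr1 and Klrb1c were under 0.1 FPKM, while Tyrobp was at 0.252 and 0.725 FPKM. The part of these shifts in the results of the receptors and of the related lists was not tested, except by the alternative scalings given beside some of them. In bulk RNA, fewer cells of a type and less RNA per cell cannot be told apart.

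**Figure D1:**
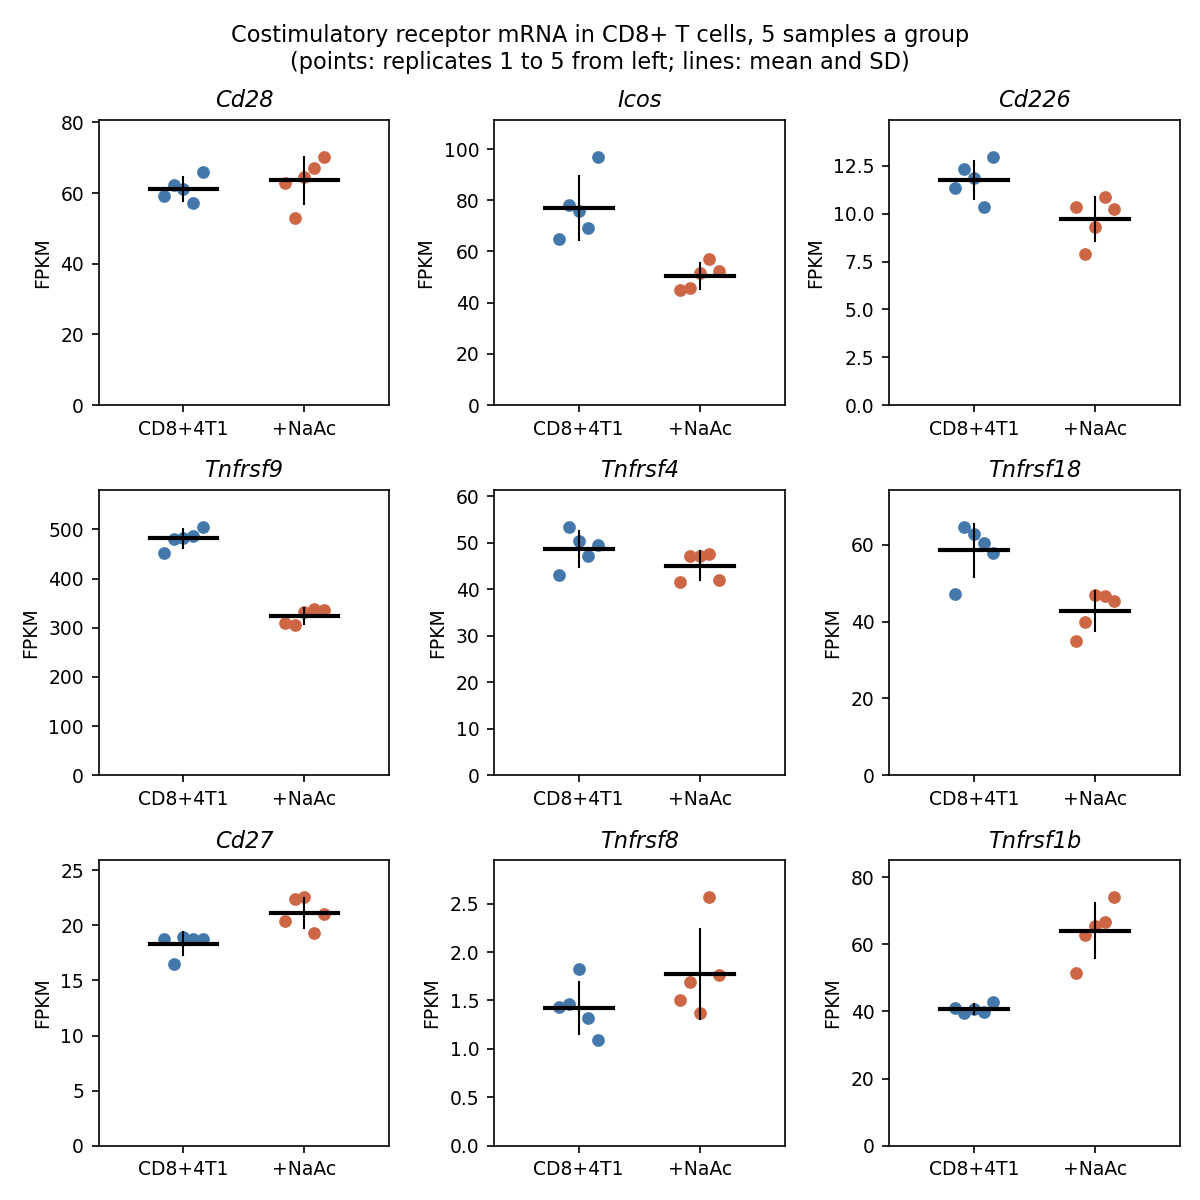
FPKM of the 9 receptors in the 10 samples, one panel per gene with its own linear axis from 0; points are samples (replicates 1 to 5 from left to right), horizontal lines group means and vertical lines 1 SD. The groups are apart in Icos, Tnfrsf9, Tnfrsf18, Tnfrsf1b and Cd27 and overlap in Cd28, Cd226, Tnfrsf4 and Tnfrsf8.

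Cd28 encodes the receptor of the B7 ligands CD80 and CD86 and was engaged by antibody in every sample. Its gene lies on chr1:60755959-60812518 on the plus strand, as all gene positions here on the coordinates of the deposited table, whose build is not given in the sources used here. The 5 CD8+4T1 samples held 59.3, 62.2, 61.2, 57.2 and 65.9 FPKM of Cd28, and the 5 CD8+4T1+NaAc samples 63.0, 53.0, 64.7, 67.2 and 70.3 FPKM. The lowest and the highest value were both NaAc samples. The mean was 61.2 ± 3.28 FPKM without and 63.6 ± 6.56 FPKM with NaAc (SD, n = 5 each). The log2 fold change was 0.05 (SE 0.07, 95% interval -0.11 to 0.22, adjusted p = 0.63 by limma) and did not pass the test. Cd28 was called higher when the samples were scaled to the same total (log2 fold change 0.23, adjusted p = 0.043) or to the T cell markers (0.25, adjusted p = 0.021), settings that moved the median of all genes by 0.17 and 0.20.

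Icos (chr1:61017086-61039479, plus strand), the inducible relative of Cd28, showed another course. Its values were 64.9, 78.0, 76.0, 69.0 and 97.0 FPKM in CD8+4T1 and 45.0, 45.6, 51.6, 57.3 and 52.4 FPKM in CD8+4T1+NaAc samples. Every NaAc sample was below every sample without NaAc, and CD8+4T1 replicate 5 stood highest. The mean fell by 34.6%, from 77.0 ± 12.4 to 50.4 ± 5.10 FPKM, with a log2 fold change of -0.60 (SE 0.11, adjusted p = 0.00141 by limma). The call held in all 21 alternatives at the same threshold, including the fit without that highest sample. Log2 fold changes lay between -0.66 and -0.40, the smallest with T cell marker scaling. The listed span of Icos overlaps Gm37039 on the same strand, at a mean of 1.09 FPKM.

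Cd226 (chr18:89195091-89290353, plus strand) encodes the adhesion receptor DNAM-1 of cytotoxic lymphocytes. CD8+4T1 samples held 11.3, 12.3, 11.9, 10.3 and 13.0 FPKM and CD8+4T1+NaAc samples 10.3, 7.91, 9.30, 10.9 and 10.2 FPKM. The groups overlapped, and NaAc replicate 2 was lowest. The mean went from 11.8 ± 1.01 to 9.73 ± 1.16 FPKM with a log2 fold change of -0.28 (SE 0.09, adjusted p = 0.0362 by limma). This call was the least stable of the 6. It was lost in 12 of 21 alternatives, with a log2 fold change of -0.10 (adjusted p = 0.462) when samples were scaled to the same total and of -0.08 (adjusted p = 0.588) when scaled to the T cell markers. The adjusted p was 0.102 with voom on the recovered fragments, and 0.0517 to 0.0858 in 6 of the 10 fits that left out a sample: CD8+4T1 replicates 1, 2, 3 and 5 and NaAc replicates 2 and 3.

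Tnfrsf9, whose product CD137 sustains the division and survival of activated CD8+ T cells, was by far the most abundant receptor. It held 452, 481, 483, 487 and 504 FPKM in CD8+4T1 and 309, 305, 332, 338 and 337 FPKM in CD8+4T1+NaAc samples. The lowest sample without NaAc was well above the highest with it, and both groups were tight. The mean fell by 32.7%, from 481 ± 18.8 to 324 ± 16.2 FPKM, with a log2 fold change of -0.57 (SE 0.05, 95% interval -0.69 to -0.45, adjusted p = 3.41e-05 by limma). Between 14376 and 22821 fragments lay behind each value, and the call held in all 21 alternatives with log2 fold changes from -0.59 to -0.37, the smallest with T cell marker scaling. The gene (chr4:150999019-151030559, plus strand) overlaps Camta1 on the other strand, at a mean of 0.814 FPKM, and as the strand setting of the counting is not given in the sources used here, reads of such a pair cannot be told apart.

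Tnfrsf18 and Tnfrsf4, which encode the activation-induced receptors GITR and OX40, are neighbours on chromosome 4 at 156110621 to 156113352 and 156098300 to 156101069, both on the plus strand. Tnfrsf18 held 47.1, 64.6, 62.9, 60.4 and 57.9 FPKM in CD8+4T1 and 35.0, 40.0, 47.0, 46.7 and 45.4 FPKM in CD8+4T1+NaAc samples. Replicate 1 was lowest in both groups, and CD8+4T1 replicate 1 was hardly above the highest NaAc sample. The mean of Tnfrsf18 fell by 26.9%, from 58.6 ± 6.88 to 42.8 ± 5.20 FPKM (log2 fold change -0.45, SE 0.10, adjusted p = 0.00632 by limma). The call held in all 21 alternatives, from -0.53 to -0.25 on the log2 scale (the smallest again with T cell marker scaling), and at -0.46 without replicate 1 of both groups. Tnfrsf18 overlaps Gm16008 on the other strand, at a mean of 1.73 FPKM.

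Tnfrsf4 held 43.1, 53.3, 50.3, 47.1 and 49.5 FPKM in CD8+4T1 and 41.5, 47.1, 47.2, 47.5 and 42.1 FPKM in CD8+4T1+NaAc samples. The ranges overlapped widely, with CD8+4T1 replicate 1 among the low values. The mean was 48.7 ± 3.85 without and 45.1 ± 3.03 FPKM with NaAc, and the log2 fold change of -0.11 (SE 0.07, 95% interval -0.26 to 0.04) did not pass the test (adjusted p = 0.236 by limma). Its sign turned, to 0.07 and 0.09, when samples were scaled to the same total or to the T cell markers.

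Tnfrsf8 (chr4:144993707-145041734, minus strand), the gene of CD30, was the least abundant member and rested on 62 to 150 fragments per sample. It held 1.44, 1.46, 1.83, 1.32 and 1.09 FPKM in CD8+4T1 and 1.505, 1.69, 1.37, 2.56 and 1.76 FPKM in CD8+4T1+NaAc samples. NaAc replicate 4 was highest, and the other values of the groups were interleaved. The log2 fold change was 0.29 (SE 0.18, 95% interval -0.12 to 0.69) and did not pass the test (adjusted p = 0.249 by limma), and the interval held both 0 and the value found for Tnfrsf1b. It was 0.15 without NaAc replicate 4, 0.45 when samples were scaled to the same total and 0.48 (adjusted p = 0.0529) when scaled to the T cell markers, none of which passed the test.

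Tnfrsf1b (chr4:144940033-144973440, minus strand) lies next to Tnfrsf8 and rose most of the 9 receptors. Its values were 41.1, 39.4, 40.6, 39.7 and 42.9 FPKM in CD8+4T1 and 51.4, 62.8, 65.4, 66.5 and 73.9 FPKM in CD8+4T1+NaAc samples. The samples without NaAc lay close together and all NaAc samples were above them, with NaAc replicate 1 nearest. The mean rose by 57.1%, from 40.7 ± 1.38 to 64.0 ± 8.19 FPKM, with a log2 fold change of 0.64 (SE 0.08, 95% interval 0.46 to 0.83, adjusted p = 0.000219 by limma). It was called higher in all 21 alternatives, at 0.72 without NaAc replicate 1 and between 0.59 and 0.84 over all of them. The summed 4T1 markers without Ly6a were also higher in every NaAc sample, and their part in the rise of Tnfrsf1b was not tested.

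Cd27 (chr6:125209585-125213973, minus strand) marks naive and memory T cells and supports their survival through its ligand CD70. It held 18.8, 16.5, 19.0, 18.8 and 18.7 FPKM in CD8+4T1 and 20.4, 22.4, 22.5, 19.3 and 21.0 FPKM in CD8+4T1+NaAc samples. The groups did not overlap, but the gap between CD8+4T1 replicate 3 and NaAc replicate 4 was small, and CD8+4T1 replicate 2 stood below its group. The mean rose by 15.1%, from 18.4 ± 1.03 to 21.1 ± 1.36 FPKM (log2 fold change 0.20, SE 0.06, adjusted p = 0.0201 by limma). The call was lost in 2 of 21 alternatives, without NaAc replicate 3 and with replicate number as block (adjusted p = 0.0539 by limma in both). The log2 fold change was 0.38 when samples were scaled to the same total and 0.40 when scaled to the T cell markers. Cd27 overlaps Vamp1 on the other strand, at a mean of 4.64 FPKM.

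**Figure D2:**
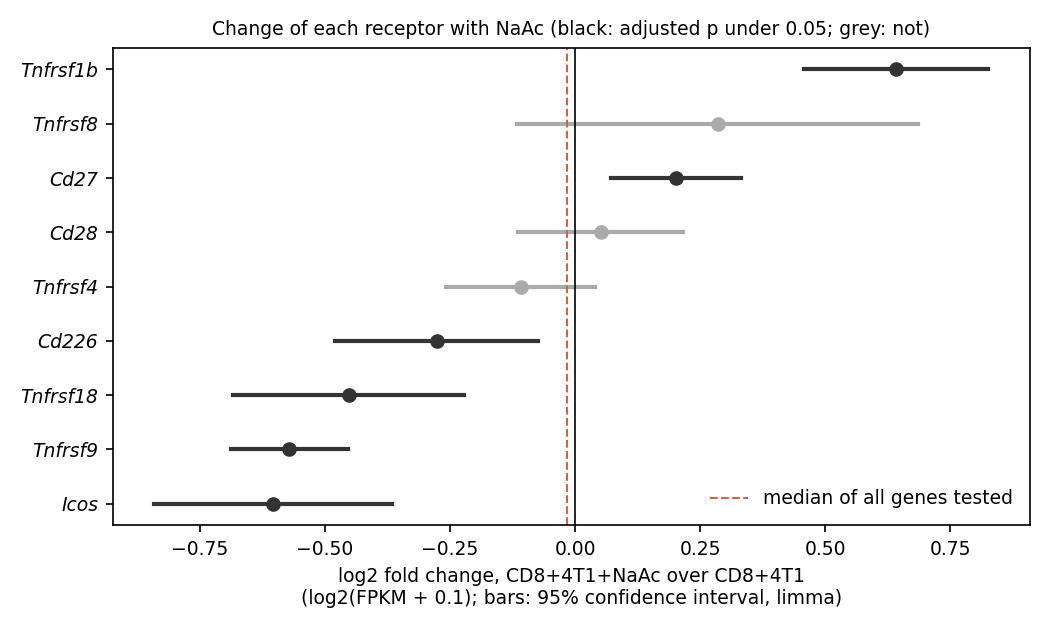
Log2 fold change of each receptor, CD8+4T1+NaAc over CD8+4T1 with 5 samples each, on log2(FPKM + 0.1); points are limma estimates, bars 95% confidence intervals, black where the adjusted p was under 0.05, and the dashed line is the median of all genes tested. Icos, Tnfrsf9, Tnfrsf18 and Cd226 lie below 0, Tnfrsf1b and Cd27 above it, and no interval of a called receptor includes 0.

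FPKM is per length, so the levels of the receptors can be set side by side. In CD8+4T1 samples Tnfrsf9 made up 60.2% of the summed mean FPKM of the 9 receptors and in CD8+4T1+NaAc samples 52.1%. Without NaAc the order of the means was Tnfrsf9, Icos, Cd28, Tnfrsf18, Tnfrsf4, Tnfrsf1b, Cd27, Cd226 and Tnfrsf8. Among neighbours in this order, the ranges of Icos and Cd28, of Cd28 and Tnfrsf18, and of Tnfrsf18 and Tnfrsf4 overlapped, and the others were apart. With NaAc the order was Tnfrsf9, Tnfrsf1b, Cd28, Icos, Tnfrsf4, Tnfrsf18, Cd27, Cd226 and Tnfrsf8, and here the ranges of neighbours from Tnfrsf1b to Tnfrsf18 overlapped, although within each NaAc sample Icos was below Cd28. Tnfrsf1b thus moved from behind Tnfrsf4 to the place after Tnfrsf9, level with Cd28, and Icos moved behind both. The summed FPKM of all 9 receptors was 739 to 850 in CD8+4T1 and 577 to 656 in CD8+4T1+NaAc samples, and these ranges did not overlap. Without Tnfrsf9 the sums were 287 to 346 and 268 to 318 FPKM and did overlap.

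Ratios of genes within a sample do not depend on how that sample was scaled, and 5 were compared by an exact permutation test over all assignments of the samples to 2 groups of 5 (two-sided, smallest possible p 0.00794), adjusted over the 5. The ratio of Icos to Cd28 was 1.09, 1.25, 1.24, 1.21 and 1.47 in CD8+4T1 and 0.716, 0.861, 0.798, 0.853 and 0.746 in CD8+4T1+NaAc samples. Icos mRNA was thus more abundant than Cd28 mRNA in every sample without NaAc and less abundant in every sample with it. The log2 difference was -0.65 (exact permutation p = 0.00794, adjusted p = 0.0198). The ratio of Tnfrsf9 to Cd27, an activation-induced over a naive and memory receptor, was 23.98 to 28.9 in CD8+4T1 and 13.6 to 17.4 in CD8+4T1+NaAc samples, a log2 difference of -0.77 (exact permutation p = 0.00794, adjusted p = 0.0198). The groups had to be apart in this ratio, since every NaAc sample was lower in Tnfrsf9 and higher in Cd27 than every other sample. Its p is therefore the smallest possible and adds nothing to the tests of the single genes.

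The receptors with an inhibitory or second receptor for the same ligands gave other results. Cd28 over Ctla4, the inhibitory receptor of the same B7 ligands, was 1.34 to 1.60 in CD8+4T1 and 1.29 to 1.80 in CD8+4T1+NaAc samples, with geometric means of 1.46 in both (exact permutation p = 0.976). Cd226 over Tigit was 0.0724 to 0.0949 and 0.0703 to 0.0927 (log2 difference 0.03, exact permutation p = 0.794, adjusted p = 0.976), and in every sample Tigit mRNA was far above Cd226 mRNA. Tnfrsf1b over Tnfrsf1a, which encodes the more widely expressed TNF receptor, was 4.13 to 5.06 and 3.49 to 6.29 (log2 difference -0.05, exact permutation p = 0.802, adjusted p = 0.976). The groups overlapped in these 3 ratios.

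**Figure D3:**
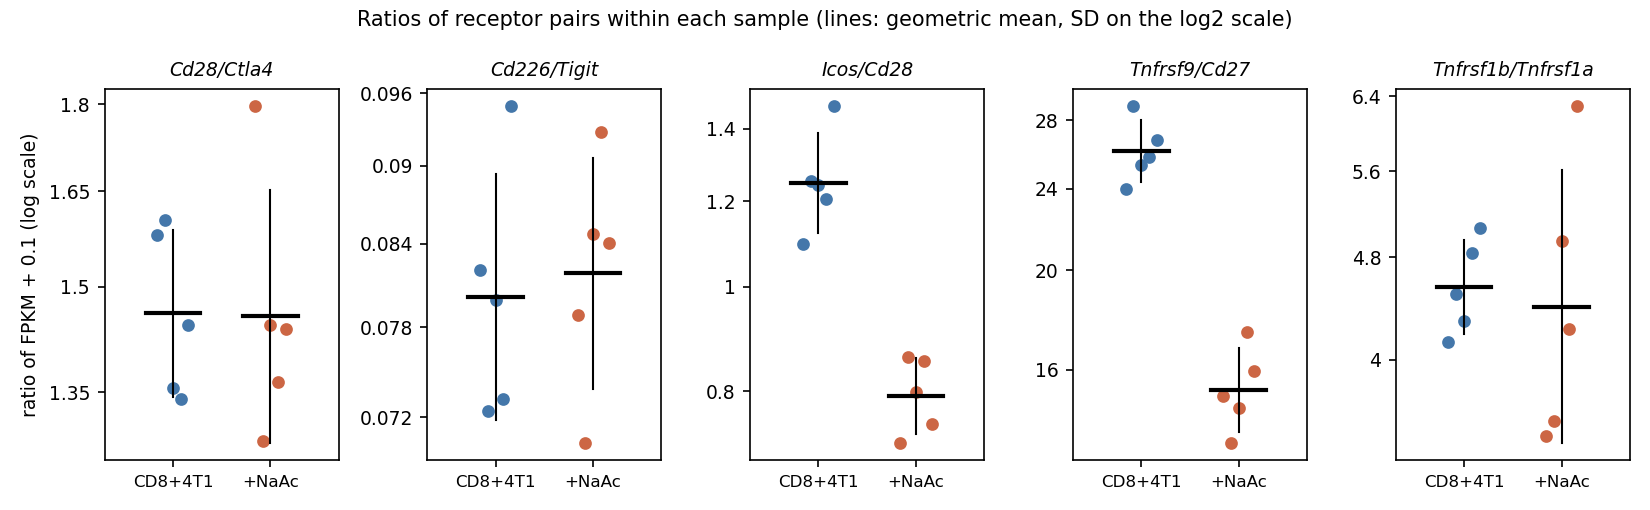
Ratio of FPKM + 0.1 of gene pairs in each of the 10 samples, on log axes that differ between panels; points are samples, horizontal lines geometric means and vertical lines 1 SD on the log2 scale. The groups are apart in Icos/Cd28 and Tnfrsf9/Cd27 and overlap in Cd28/Ctla4, Cd226/Tigit and Tnfrsf1b/Tnfrsf1a.

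Of 12 ligands of the receptors, 10 were tested, and 1 was called higher and 4 lower, beside 17.6% and 19.0% of all genes (median log2 fold change -0.12, against -0.02 for all genes). Lta, whose product lymphotoxin alpha binds the TNF receptors, fell from 148 ± 13.4 to 59.5 ± 12.6 FPKM (log2 fold change -1.33, adjusted p = 3.84e-05 by limma). Tnfsf8, the ligand of CD30, fell from 46.2 ± 1.62 to 33.4 ± 3.32 FPKM. Cd80, a ligand of CD28 and CTLA4, fell from 40.7 ± 2.64 to 30.1 ± 2.23 FPKM, and Cd70, the ligand of CD27, from 6.77 ± 1.07 to 4.82 ± 0.985 FPKM on 53 to 112 fragments. Nectin2, a ligand of CD226, rose from 1.75 ± 0.180 to 4.39 ± 1.05 FPKM (log2 fold change 1.24, adjusted p = 0.000289 by limma). The summed 4T1 markers without Ly6a were at 125 to 282 FPKM in NaAc and 21.0 to 34.9 FPKM in the other samples, and their part in this rise was not tested. Tnf, the other ligand of TNFR2, was at 8.06 ± 1.43 FPKM without and 9.98 ± 1.004 FPKM with NaAc and did not pass the test (log2 fold change 0.32, adjusted p = 0.0777 by limma). Neither did Tnfsf4, the ligand of OX40, at 82.4 ± 2.25 and 73.6 ± 9.50 FPKM (log2 fold change -0.17). Of the ligands of receptors that fell, Icosl, Tnfsf9 and Pvr had log2 fold changes of 0.61, -0.08 and 0.03 and did not pass the test, and Tnfsf18 was, like Cd86, below the filter.

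Of the 6 inhibitory counterparts of the CD28 and CD226 families, 5 were tested, 3 were called lower, beside 19.0% of all genes, and 0 higher, beside 17.6% (median log2 fold change -0.20). Btla, which binds the TNF receptor HVEM, fell from 20.8 ± 0.795 to 13.5 ± 1.26 FPKM (log2 fold change -0.62, adjusted p = 7.34e-05 by limma). Tigit fell from 148 ± 14.0 to 120 ± 8.41 FPKM and Pdcd1, which encodes PD-1, from 61.3 ± 3.09 to 53.2 ± 1.43 FPKM (log2 fold changes -0.31 and -0.20, adjusted p = 0.00713 and 0.00521 by limma). Ctla4 was at 41.9 ± 3.70 FPKM without and 43.8 ± 5.92 FPKM with NaAc and did not pass the test (log2 fold change 0.06, adjusted p = 0.696 by limma). When the samples were scaled to the same total, 2 genes of this list were called, and 3 when scaled to the T cell markers. Of the 12 T cell markers, 7 were called lower with NaAc and 1 higher (median log2 fold change -0.28), and their part in these falls was not tested.

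Among 22 other TNF receptor superfamily genes, 18 were tested, 6 were called higher and 5 lower, beside 17.6% and 19.0% of all genes (median log2 fold change -0.05). The death receptor gene Tnfrsf10b had the smallest p, and fell from 22.0 ± 0.637 to 15.3 ± 0.340 FPKM (log2 fold change -0.52, adjusted p = 1.54e-05 by limma). The other 4 of the 5 with the smallest p rose. Tnfrsf21, the gene of death receptor DR6, went from 0.624 ± 0.118 to 3.02 ± 0.979 FPKM, Tnfrsf22, a decoy receptor, from 1.80 ± 0.326 to 4.38 ± 0.859 FPKM, Ltbr, the lymphotoxin beta receptor, from 2.25 ± 0.312 to 5.29 ± 1.44 FPKM, and Tnfrsf1a from 8.90 ± 0.728 to 14.5 ± 2.22 FPKM. Their log2 fold changes were 2.06, 1.23, 1.16 and 0.69, again in the samples with the higher 4T1 markers, whose part was not tested. When a mean of at least 5 FPKM was asked for, 6 genes of this list were called, beside 3733 of 7800 genes tested. Fewer genes of the list were tested there, without Tnfrsf21, Tnfrsf22 and Ltbr.

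Of 19 adaptors and kinases downstream of the receptors, all tested, 2 were called higher and 7 lower, beside 17.6% and 19.0% of all genes (median log2 fold change -0.21). Birc3, a ubiquitin ligase recruited by TRAF proteins, fell from 11.9 ± 0.697 to 8.34 ± 0.788 FPKM and Traf6 from 16.5 ± 0.736 to 13.0 ± 1.07 FPKM (log2 fold changes -0.51 and -0.35). Vav1 and Grap2, which act next to CD28, fell from 37.7 ± 1.73 to 31.3 ± 1.28 FPKM and from 43.1 ± 1.07 to 30.5 ± 6.03 FPKM (log2 fold changes -0.27 and -0.52). Over these 4 lists, 9 of 52 genes tested were called higher and 19 lower, beside 17.6% and 19.0% of all genes, with a median log2 fold change of -0.14. When the samples were scaled to the same total or to the T cell markers, 26 and 24 genes of the 4 lists were called, in place of 28. Of the adaptors and kinases, 9 and 7 were called under these scalings, which moved the median of all genes by 0.17 and 0.20.

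**Figure D4:**
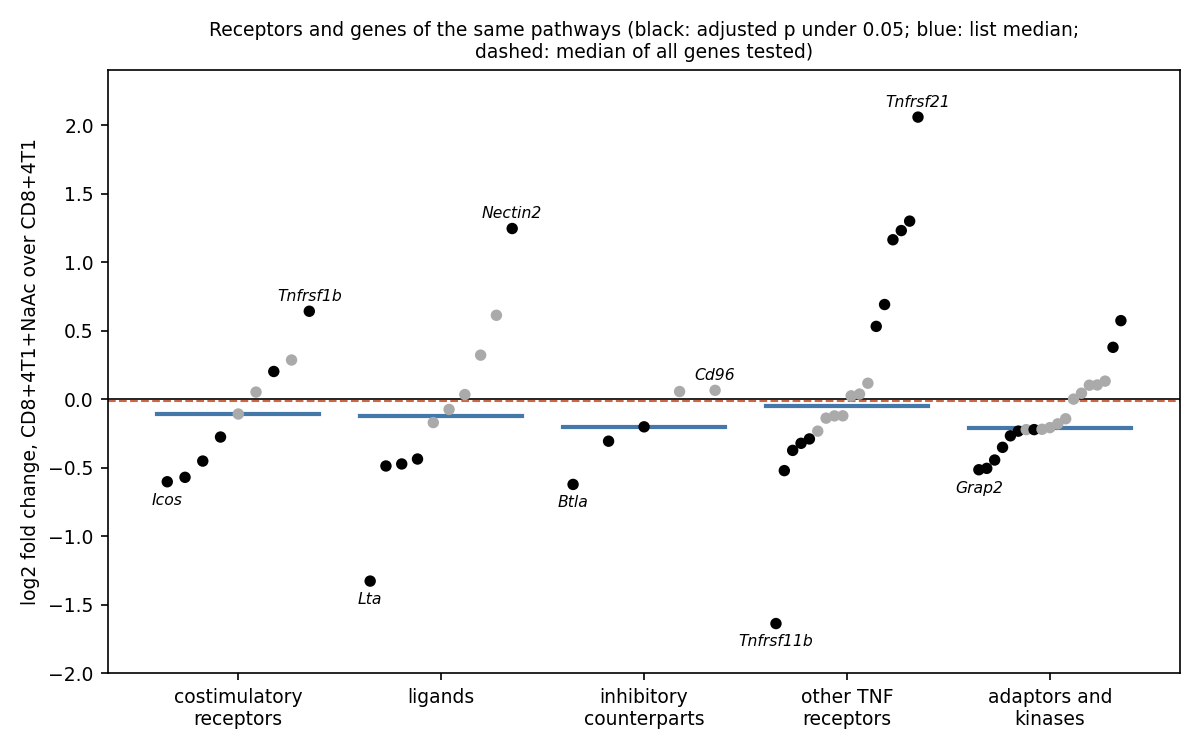
Log2 fold change of the 9 receptors and of the tested genes of 4 related lists (points, ordered within a list), CD8+4T1+NaAc over CD8+4T1; black points had an adjusted p under 0.05, blue lines are list medians and the dashed line is the median of all genes. The receptors lie between -0.60 for Icos and 0.64 for Tnfrsf1b, within the spread of the ligands and of the other TNF receptors.

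The receptors were also compared by profile, as the root mean square difference of log2(FPKM + 0.1), centred on each gene, over the 10 samples. The closest receptors were Icos and Tnfrsf9 (0.124), Tnfrsf9 and Tnfrsf18 (0.136) and Cd28 and Tnfrsf4 (0.168), and the most distant were Icos and Tnfrsf1b (0.640). Among 10540 protein-coding genes averaging 1 FPKM or more outside the lists, Dtx3l (0.0510) and Pcmt1 (0.0569) were nearest to Tnfrsf9. Bcas3 (0.0590) and Phka2 (0.0710) were nearest to Tnfrsf1b, and Atp11b (0.105) and Dtx3l (0.109) to Icos. Dtx3l, nearest to Tnfrsf9, fell from 22.6 ± 1.55 to 15.1 ± 0.608 FPKM, and Bcas3 rose from 2.21 ± 0.0846 to 3.37 ± 0.423 FPKM. These nearness values are descriptions over the same 10 samples, so differences between samples in depth and treatment enter the profile of every gene.

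**Figure D5:**
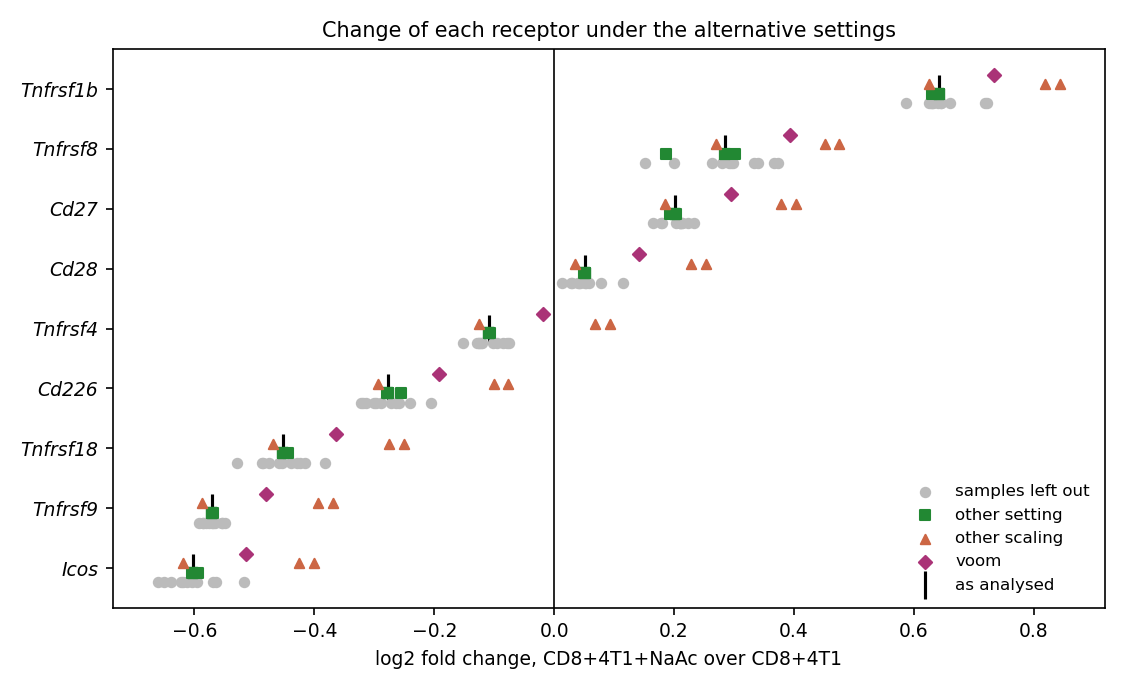
Log2 fold change of each receptor under the alternative settings: grey points leave out a sample or samples, green squares change a pseudocount, filter or model, orange triangles rescale the samples, purple diamonds are voom and black bars the values reported. The points of Icos, Tnfrsf9 and Tnfrsf18 stay below 0 and those of Tnfrsf1b and Cd27 above 0, while Tnfrsf4 has points on both sides.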

How the data were processed

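CD8+ T cells were sequenced in 10 samples, 5 per group, grouped by the treatment label. The authors deposited FPKM, 1 column per sample, together with gene length in bases as another column. The submitters' processing notes name fastp, HISAT2 2.0.5, StringTie 1.3.3b and featureCounts 1.5.0-p3, and the methods name DESeq2 for the authors' tests. Genome build, annotation and strand setting are not given in the sources used here. FPKM times length came out whole for 100% of values (within 0.1), which gave the fragments per gene.

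The 15710 genes averaging 0.5 FPKM or more over the samples were tested with limma 3.58.1 (R 4.3.3; trend and robust moderation) on log2(FPKM + 0.1), without covariates, since FPKM are not counts. Called means a Benjamini-Hochberg adjusted p under 0.05 over all genes tested. On simulated counts for this comparison (15552 genes), 100% of genes changed by a log2 fold of 2 and 90.2% of those changed by 1 were called, and 0.0782% of unchanged genes. The simulation changed 98 and 102 genes by these sizes and assumed the same spread between samples for all genes. Smaller changes, such as the 0.64 of Tnfrsf1b, were not simulated. Ratios were compared by exact permutation.

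The members and lists were chosen with earlier results of these data known. Named genes were the 9 members, of each pathway list the called genes up to the 5 of smallest adjusted p, genes of the 5 ratios and the 2 nearest profiles of the 3 members of smallest adjusted p. Cell type markers and the ligands not called were named beside them, after their values were seen. Genes of the adaptor and B cell lists that are counted in those lists but not reported by themselves are left out here. Alternatives were pseudocounts of 1 and 0.01, no filter, a mean of at least 5 FPKM, 3 scalings (same total, median ratio, T cell markers), plain limma, replicate number as block, voom on recovered fragments, leaving out each sample or replicate 1 of both groups, and an absolute log2 fold change over 1. Figures were drawn with matplotlib 3.10.9.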

Additional observations from a re-analysis of the deposited data

Results flagged for a closer look

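Cd27 in CD8+4T1 replicate 2 (16.5 FPKM) lay apart from the other 4 samples of its group, which held 18.7 to 19.0 FPKM. On the log2 scale its gap to the nearest sample was 0.913 of the range of the group, above Dixon's critical value of 0.71 for 5 samples. Of 30 groups of values checked, 1 was this far apart and chance gives about 1.5.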

How the results depend on the processing

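The calls of Tnfrsf9, Icos, Tnfrsf18 and Tnfrsf1b kept their direction and passed the threshold in all 21 alternatives. Those of Cd226 and Cd27 were lost in 12 and 2 alternatives, respectively, and Cd28 was called in 2. The number of receptors called was 4 to 6 with a sample left out, 4 with the replicate block and 0 of 9 when an absolute log2 fold change over 1 was asked for as well, in limma (6 at the adjusted p alone, 5 with voom). Tnfrsf4 turned to 0.0684 with the same total and 0.0932 with T cell marker scaling, which moved the median of all genes by 0.17 and 0.20. Higher genes made up 48.1% of calls as analysed, 78.0% with the same total, 81.9% with T cell marker scaling, 65.0% with voom and 33.7% at a mean of at least 5 FPKM, where 3733 genes were called in place of 5742 because fewer were tested. The replicate numbers are not tied to animals. The mean correlation of same-numbered samples was 0.014, and 4 of 10 samples correlated best with their own number. Replicate 1 nevertheless had the fewest genes above 0 in both groups, 22291 and 20233. Without replicate 1 of both groups, limma called 6979 genes in place of 5742. With the replicate block, limma called 5399 genes in place of 5742 and no longer Cd226 (adjusted p 0.0787) and Cd27 (0.0539). In the paired sign-flip permutation (smallest p 0.0625) the log2 ratios Icos/Cd28 and Tnfrsf9/Cd27 with the replicate block stayed at -0.65 and -0.77 with an adjusted p of 0.156, a design that cannot pass the threshold. Without replicate 1 of both groups they were -0.66 and -0.80 (exact permutation, adjusted p 0.0714), a smaller design. The other 3 ratios, not called, changed sign when single samples were left out, over -0.0800 to 0.0408 for Cd28/Ctla4, -0.0148 to 0.0917 for Cd226/Tigit and -0.179 to 0.0342 for Tnfrsf1b/Tnfrsf1a. Depth limits Tnfrsf8 (62 to 150 fragments) most.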
